A study of Mus musculus with 4 samples.

Results

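Cells primed toward the megakaryocyte and erythroid lineages were examined among LSK cells (bone marrow cells that lack lineage antigens and carry Sca-1 and cKit, among which stem cells and multipotent progenitors are found) taken 9 days after 5-fluorouracil (5-FU), which is toxic to cycling cells. A cell was counted as primed when it held at least 1 UMI (a unique molecular identifier, 1 captured transcript) of at least 3 of 8 markers, which were Pf4, Treml1, Gp1bb, Gata1, Mfsd2b, Car1, Rhag and Aqp1. Of 9029 cells that carried 1 hashtag after 5-FU (singlets), 1135 met this rule and 7894 did not. Because the cells were selected on their own measured levels of these 8 genes, the levels of the 8 genes, and the comparison of the primed cells with the other singlets, are descriptions with no test.

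Both genotypes carried the floxed Sin3B allele on a C57BL/6 background. Wild-type cells came from Sin3B F/F mice, and knockout cells from Sin3B F/F;Vav1-iCre+ mice, in which Cre is driven in hematopoietic cells and deletes Sin3B throughout the blood system. The study treated 2 mice per genotype with 1 intraperitoneal dose of 100 mg/kg 5-FU, stained the LSK cells of each genotype with its own anti-CD45 hashtag antibody, and loaded both genotypes together in 1 library. The sources used here do not give the age of these mice. The labels give the library of each cell but not its genotype, so genotype was read from the hashtag with the tag assignment in the study's methods. Each genotype is therefore 1 pool, no p-value can be given between genotypes, and every interval below is a 95% interval that covers counting error only, not the spread between mice. A second library of LSK cells from untreated mice (homeostasis) is set beside some values. Treatment and library coincide there and cannot be told apart.

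Megakaryocytes, the cells that shed platelets, and erythrocytes arise from shared progenitors. These progenitors use the transcription factor GATA1 and its partners, and the lineages then part as KLF1 drives the erythroid program and FLI1 the platelet program. Stem cells can already carry transcripts of platelet genes, and after loss of dividing progenitors the marrow rebuilds platelets and red cells early. The 8 markers span both lineages. Pf4 encodes a chemokine of platelet granules, Treml1 a receptor stored in those granules, and Gp1bb a subunit of the platelet receptor for von Willebrand factor. Car1 encodes an erythrocyte carbonic anhydrase, Rhag a membrane protein of the Rh complex, and Aqp1 a water channel of the red cell. Gata1 and Mfsd2b, a sphingosine-1-phosphate exporter of red cells and platelets, belong to both.

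Because these cells were chosen through Gata1 and genes that GATA1 is known to regulate, the promoters of the lineage genes were searched for AGATAA, a sequence to which GATA factors bind, on both strands (its complement reads TTATCT). RefSeq promoters on build GRCm38.p6, 250 bases before to 50 bases after each start, were used. The sequence occurred in 11.2% of all 32851 promoters. Of the 8 markers, 7 had an entry and Pf4 alone held a match. Of 21 other megakaryocyte and platelet genes, 16 had an entry and 5 held a match, and of 23 other erythroid genes, 15 had an entry and 8 held a match. Counted by promoter, as for the 11.2%, a match lay in 5 of 17 and 9 of 21, since some genes have several promoters. Some matching genes were barely found in the primed cells. Alas2, Rhd, Sphk1 and Kel had 0, 8, 10 and 39 UMIs there, and Gp6 had 1. CCACACCC, a sequence to which KLF1 binds, occurred in 3.56% of all promoters and in 0 of the promoters of these 3 lists. A match is a description of the letters in this window and does not show that a factor binds there. The windows around a match in 6 genes that the primed cells expressed are shown 5′ to 3′ on the strand of the gene, with the match in capitals, so that the shared letters can be compared:
Pf4 (chr5:90772461-90772484, plus strand, match 36 bases after the start): caggcagtgaAGATAAaacgtgct
Gp5 (chr16:30310859-30310884, minus strand, match 93 bases before the start): tcttgactttTTATCTggtaaggtct
F2rl2 (chr13:95696815-95696840, plus strand, match 95 bases before the start): ggtgaggaagAGATAAaagggatatg
Epor (chr9:21963615-21963640, minus strand, match 54 bases before the start): tggctgtagcTTATCTgtccccagcc
Icam4 (chr9:21029379-21029404, plus strand, match 43 bases before the start): gggtgccttcTTATCTcctgcggcca
Hemgn (chr4:46404140-46404165, minus strand, match 28 bases after the start): tggtctaaccAGATAAaacttttagg
The windows of F2rl2 and Epor, a platelet and an erythroid receptor gene, thus hold the sequence on opposite strands. The values of these 6 genes in the primed cells are given with their lists below.

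Primed cells made up a larger share of the knockout singlets than of the wild-type singlets. Of 5302 wild-type singlets, 545 were primed (10.3%, exact interval 9.47 to 11.1%), and of 3727 knockout singlets, 590 were primed (15.8%, 14.7 to 17.0%). The difference was 5.55 percentage points (Newcombe interval 4.13 to 6.99), a ratio of 1.54. At homeostasis the same rule was met by 225 of 11579 wild-type singlets (1.94%) and by 148 of 4628 knockout singlets (3.20%), a difference of 1.25 points (0.714 to 1.85). The primed cells were also deeper in the knockout, with a median of 20288 UMIs per cell against 14964 in the wild type, while the other singlets had medians of 9977 and 8794. A deeper cell has more chances to show 3 markers, so every cell was also thinned to 4000 UMIs before the rule was applied, which left out 654 wild-type and 276 knockout cells. At this fixed depth the shares were 3.33% in the wild type and 4.55% in the knockout, a difference of 1.21 points (0.362 to 2.10) and a ratio of 1.36. The direction was thus kept at fixed depth and the ratio was smaller.

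**Figure D1:**
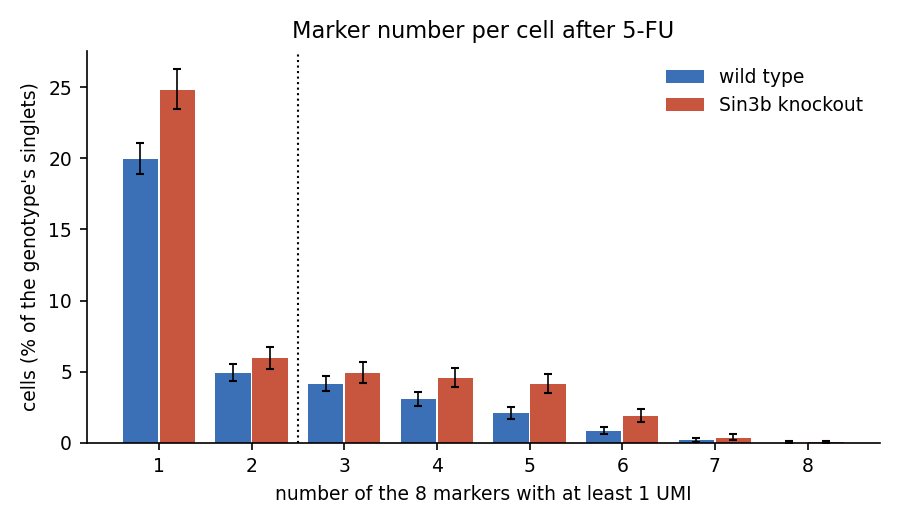
Share of each genotype's singlets after 5-FU (y axis, %) by the number of the 8 markers with at least 1 UMI (x axis, 1 to 8), wild type in blue and Sin3b knockout in red, with exact 95% binomial intervals; cells right of the dotted line were counted as primed. Cells with 5 markers were 2.07% of wild-type and 4.13% of knockout singlets, while cells with 3 markers were 4.15% and 4.91%.

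Most singlets held no marker or a single marker. In the wild type 64.8% of singlets held 0 markers and 19.9% held 1, and in the knockout 53.4% held 0 and 24.8% held 1. Just outside the threshold were 483 cells with 2 markers, which had a median depth of 13395 UMIs and a median of 3 UMIs of the 8 genes together. Just inside it were 403 cells with 3 markers, with a median depth of 14654 UMIs and a median of 5 such UMIs. Genes that the rule did not use also differed in level between these neighbouring classes. Summed Klf1 was at 16.6 CPM (counts per 1000000 UMIs of the pooled cells) in cells with 2 markers and at 44.8 CPM in cells with 3, against 0.974 CPM in cells with 0. Vwf, the gene of von Willebrand factor, was at 27.4 CPM with 2 markers, 51.2 CPM with 3 and 133 CPM with 5. The stem cell gene Hlf ran the other way, at 562 CPM with 0 markers, 253 CPM with 2, 143 CPM with 3 and 60.2 CPM with 5. For these 3 genes, cells with 2 markers thus lay between cells with 0 and cells with 3. Klf1 changed little beyond the threshold, at 49.6 CPM with 4 markers and 52.8 CPM with 5. Not every gene ran in 1 direction, since Gata2 was at 164 CPM with 0 markers, 235 CPM with 2, 282 CPM with 3 and 233 CPM with 5.

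Free RNA from broken cells can place UMIs in cells that do not express a gene. In 597 singlets with at least 2 UMIs of Dntt, a gene of lymphoid progenitors, the rule was met by 13 (2.18%, exact interval 1.16 to 3.69%) at a median depth of 13470 UMIs, against 12.6% of all singlets at 9943 UMIs. Pf4 UMIs were found in 17.9% of these Dntt cells and in 20.7% of all singlets outside the primed class at a median of 9237 UMIs. In 145 singlets with UMIs of the granule genes Elane, Prtn3 and Ctsg, 7 met the rule (4.83%) at a median depth of 28018 UMIs. Pf4 was found in 29.7% of these granule cells, Mfsd2b in 9.66% and Gata1 in 8.28%, against 20.7%, 4.47% and 5.41% of the other singlets. Rhag was found in 0.503% of the Dntt cells, against 19.4% of the primed cells. The rule selected on Rhag, Pf4 and Treml1, so their shares in primed cells are descriptions and no check on free RNA. Within cells thinned to 4000 UMIs, Pf4 was found in 55.8% of primed cells, 10.6% of the other singlets (9.93 to 11.4%) and 6.37% of Dntt cells (4.52 to 8.67%), and Treml1 in 24.6%, 1.33% and 1.03%. These classes were set at full depth.

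The summed levels of the 8 markers, which the rule used, spanned a wide range in the primed cells. Pf4 was by far the most abundant at 1419 CPM (1404 to 1435), against 37.2 CPM in the other singlets. Its UMIs were spread unevenly, with a median of 3 per primed cell, a 95th percentile of 133 and a highest value of 649. Mfsd2b followed at 109 CPM, Gata1 at 85.8 CPM, Treml1 at 69.9 CPM and Aqp1 at 66.3 CPM, against 5.74, 7.63, 3.43 and 2.19 CPM in the other singlets. The remaining 3 were lower. Car1 was at 36.4 CPM against 0.456, Gp1bb at 13.7 CPM against 0.156, and Rhag at 12.3 CPM against 0.944. These UMIs were counted at the 3′ end of transcripts and so need no correction for gene length. Mfsd2b was the marker found in most primed cells (84.5%), and Car1 in fewest (8.81%). Car1 was concentrated as well, since 5 cells held 51.7% of its 808 UMIs. The combination found most often was Pf4, Gata1, Mfsd2b, Treml1 and Aqp1, in 107 cells (9.43%), so the most frequent pattern joined platelet and erythroid markers in 1 cell.

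**Figure D2:**
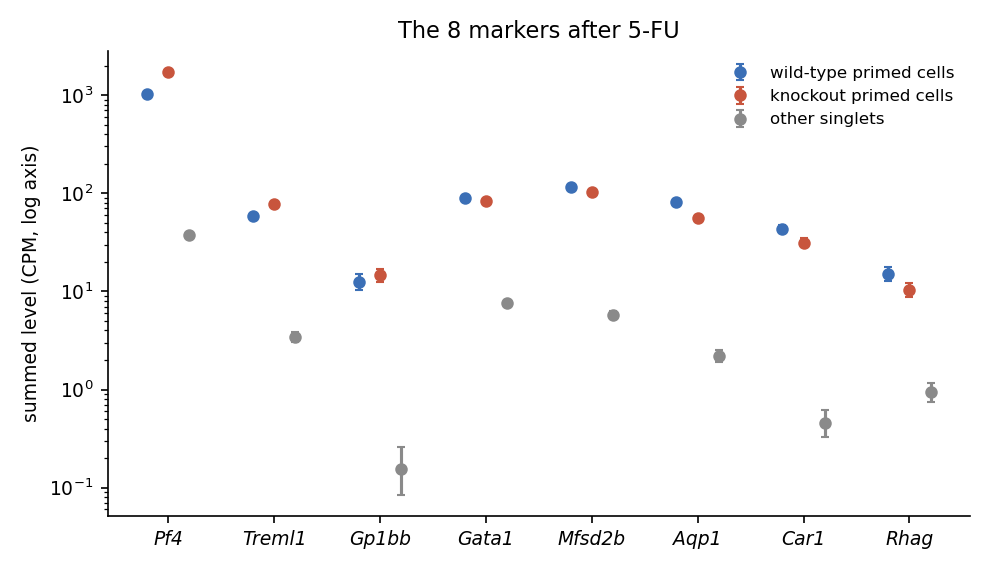
Summed level (y axis, CPM, log axis) of the 8 markers (x axis) in wild-type primed cells (blue), knockout primed cells (red) and other singlets of both genotypes (grey) after 5-FU, with exact 95% Poisson intervals. Pf4 stood at 1022 CPM in wild-type and 1705 CPM in knockout primed cells, whereas Aqp1 stood at 81.2 and 55.6 CPM.

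Genes outside the rule were then compared between the primed cells and the other singlets, as log2 ratios of summed CPM with 0.5 counts added. A gene was counted when the ratio was at least 2-fold and when it had at least 50 UMIs in all. Of 13733 genes, the 8 markers left out, 559 were at least 2-fold higher in the primed cells (4.07%) and 1706 at least 2-fold lower (12.4%), with a median log2 ratio of −0.09 over all of them. The cells were selected in this same contrast, so these shares are printed for scale and nothing is read from them. The primed cells were deeper than the other singlets (median 18143 against 9237 UMIs), and their median mitochondrial share was 2.88% against 3.35%. The 1135 primed cells summed to 22193600 UMIs and the other singlets to 89997559 UMIs.

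Megakaryocyte and platelet genes outside the rule were mostly higher in the primed cells. Of 21 genes, 19 had enough UMIs, 15 of them were at least 2-fold higher and 0 at least 2-fold lower, with a median log2 ratio of 2.33. Nrgn, which encodes neurogranin, had the highest level of the list, at 471 against 199 CPM. Among genes of surface receptors, Itga2b, the integrin chain CD41, was at 185 CPM in primed cells and 36.6 CPM in the others, and was found in 89.0% and 26.9% of cells. Gp9, a further subunit of the von Willebrand factor receptor, was at 119 against 24.1 CPM, and Gp5 of the same receptor, whose promoter window is shown above, at 54.1 against 6.42 CPM. The thrombin receptor genes F2r and F2rl2 were at 155 against 32.3 CPM and at 22.8 against 1.87 CPM. Among genes of secreted proteins, Vwf was at 103 against 12.0 CPM (log2 ratio 3.09) and Thbs1, thrombospondin, at 6.44 against 0.344 CPM (4.21). Cavin2, which shapes caveolae, was at 201 against 20.3 CPM. Selp, P-selectin, was the only counted gene of the list below 0, at 66.2 against 97.8 CPM (log2 ratio −0.56). Of this list, 2 genes had under 50 UMIs in all, Tubb1 (the platelet tubulin) with 7 and Gp6 (the collagen receptor) with 1 over all primed cells. Ppbp had 74 UMIs, at 3.33 against 0.589 CPM.

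Erythroid genes outside the rule were also higher. Of 23 genes, 1 had no matching symbol and 14 had enough UMIs. Of these, 12 were at least 2-fold higher and 0 at least 2-fold lower, with a median log2 ratio of 2.44. Klf1 was at 48.8 CPM against 2.69 CPM (log2 ratio 4.18) and was found in 49.3% of primed cells and 2.31% of the others. Epor, the erythropoietin receptor, was at 28.6 against 3.28 CPM (3.12), Icam4, a blood group adhesion molecule, at 67.1 against 13.0 CPM (2.36), and Hemgn, a nuclear protein of erythroid cells, at 61.5 against 30.3 CPM (1.02). Tmod1, which caps actin filaments of the red cell skeleton, was at 27.5 against 2.86 CPM. Car2, a carbonic anhydrase, was the most abundant of the list at 808 CPM but was also at 522 CPM in the other singlets, a log2 ratio of 0.63. The heme-making enzyme Alas2 had 0 UMIs in the primed cells and the anion exchanger Slc4a1 had 1. Of the adult globins, Hbb-bs was at 11.4 against 2.17 CPM, while Hbb-bt was lower, at 33.0 against 82.2 CPM, and the alpha chains Hba-a1 and Hba-a2 had 8 UMIs and 1 UMI.

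**Figure D3:**
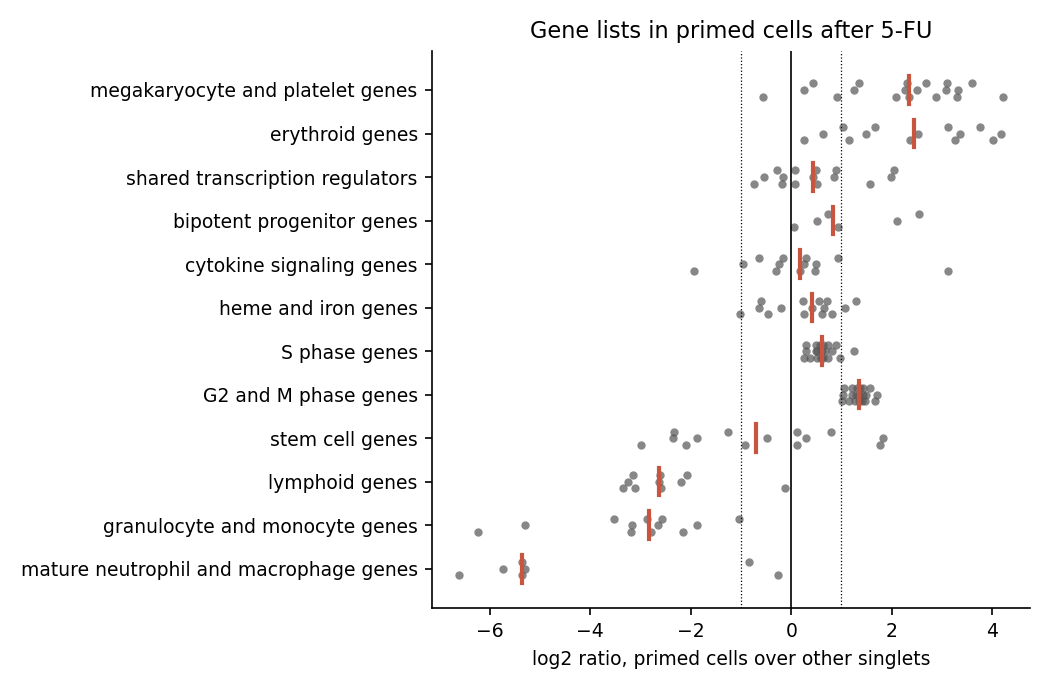
Log2 ratio of summed CPM in primed cells over other singlets after 5-FU (x axis) for each gene with at least 50 UMIs (grey points) of 12 gene lists (y axis), with the list median as a red bar and dotted lines at 2-fold. The medians of the platelet (2.33) and erythroid (2.44) lists lay above 2-fold, and those of the lymphoid (−2.62) and granulocyte (−2.83) lists below 2-fold lower.

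The transcription regulators used by both lineages differed less than the lineage genes. All 15 had enough UMIs, 3 were at least 2-fold higher and 0 at least 2-fold lower, and the median log2 ratio was 0.44. Among the 3 were Gfi1b, a repressor needed for platelets and red cells, at 81.4 against 20.7 CPM, and Zfpm1, which encodes the GATA1 partner FOG1, at 433 against 146 CPM. Gata2 was at 249 against 174 CPM and Fli1 at 226 against 126 CPM. Myb, a progenitor factor, was lower at 334 against 485 CPM. Genes of bipotent progenitors were higher in 6 of 6 cases, of which 2 were at least 2-fold higher. These were Apoe, a lipoprotein gene, at 1738 against 402 CPM, and the urea transporter gene Slc14a1 at 112 against 19.1 CPM. Among 13 cytokine signaling genes, Epor alone was at least 2-fold higher and Socs3, a feedback inhibitor, alone at least 2-fold lower (10.4 against 40.0 CPM). Of 15 counted heme and iron genes, 2 were at least 2-fold higher, among them the ferrireductase gene Steap3 at 13.9 against 6.64 CPM. Hmox1, which breaks down heme, was at least 2-fold lower with 27 UMIs.

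Lymphoid, granulocyte and monocyte genes were mostly lower in the primed cells, and stem cell genes were mixed. Of 10 lymphoid genes, 9 were at least 2-fold lower, with a median log2 ratio of −2.62. Flt3, a receptor of lymphoid-primed progenitors, was at 8.11 against 83.2 CPM. All 12 granulocyte and monocyte genes were at least 2-fold lower, with a median of −2.83, and Mpo, myeloperoxidase, was at 22.6 against 136 CPM. Of 14 stem cell genes, 6 were at least 2-fold lower and 2 at least 2-fold higher. Hlf was at 100.2 against 512 CPM, Procr, the surface receptor EPCR, at 8.20 against 65.8 CPM, and Ly6a, which encodes the Sca-1 antigen of the sort, at 32.6 against 166 CPM. The stem cell genes at least 2-fold higher were Slamf1 (CD150) at 81.6 against 23.9 CPM and Ctnnal1, a catenin-related gene, at 49.7 against 14.04 CPM. In all, 6 of the 14 had a ratio above 0, the others being Tcf15 (0.78), Hoxb5 (0.29), Meis1 (0.11) and Esam (0.11). Kit, the other antigen of the sort, was at 169 against 209.8 CPM. Mast cell, basophil and eosinophil genes were mixed, with 4 of 8 counted genes at least 2-fold higher and 1 lower. Their summed level was 55.0 against 41.2 CPM, and Fcer1a, a chain of the IgE receptor, was at 11.1 against 2.00 CPM. The other 3 higher genes were Il1rl1, an interleukin-33 receptor gene, at 5.95 against 0.856 CPM, Ms4a2, a further chain of the IgE receptor, at 3.65 against 0.844 CPM, and the protease gene Gzmb at 0.856 against 0.367 CPM. The lower gene was the basophil protease gene Mcpt8 at 0.631 against 8.81 CPM. Prss34, Epx and Cma1 had 0, 0 and 1 UMIs in the primed cells and 0, 2 and 3 in the others, and Cpa3, a mast cell protease that early progenitors also carry, was at 28.3 against 23.5 CPM. Mature B, T and NK cell genes summed to 1.17 CPM, with Cd3e, Cd8a, Ms4a1 and Ncr1 at 0 UMIs, and mature neutrophil and macrophage genes to 5.77 CPM, with Adgre1 at 0 UMIs. Of 6 stromal and endothelial genes, Col1a2 alone exceeded 50 UMIs in the primed cells, at 25.4 against 6.99 CPM, while Col1a1 had 3 UMIs and Cxcl12 had 0.

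The signatures with which the study named LSK subsets were read in the same way. The MPP2 signature, that of the multipotent progenitors biased to platelets and red cells, had 71 of 99 genes counted, of which 31 were at least 2-fold higher in the primed cells and 4 lower, with a median log2 ratio of 0.95. The LT-HSC signature of long-term stem cells had 14 genes higher and 13 lower of 117 (median 0.12). The ST-HSC signature of short-term stem cells had 3 higher and 60 lower of 117 (median −1.02). For MPP3, biased to myeloid cells, and MPP4, biased to lymphoid cells, 27 of 78 and 37 of 88 counted genes were at least 2-fold lower. Pf4 and Mfsd2b, genes of the rule, are among the 71 genes and among the 31, and enter the median. The primed cells were not assigned to a subset here.

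Cell cycle genes were higher in the primed cells. All 20 G2 and M phase genes were at least 2-fold higher, with log2 ratios from 1.01 to 1.72, and the proliferation marker Mki67 was at 616 against 207 CPM. All 20 S phase genes were higher, 1 of them at least 2-fold (Clspn, a checkpoint adaptor, log2 ratio 1.26). At a fixed depth of 4000 UMIs, 474 of 1126 primed cells (42.1%, 39.2 to 45.0%) had at least 5 UMIs of the G2 and M phase genes, against 879 of 6973 other singlets (12.6%, 11.8 to 13.4%). Only these counts were thinned. The primed class itself was set at full depth, where the rule takes in deeper cells, and the part of depth was not tested. Without thinning, these genes had a median of 6.04 UMIs per 10000 in a primed cell and 1.24 in another singlet. Of 16 G1 regulators, 0 were at least 2-fold higher and 1 lower, the inhibitor gene Cdkn1c at 8.38 against 20.2 CPM.

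The genes of highest ratio outside the rule included further red cell and platelet genes beside genes of neither class. Of the 20 highest, 2 carried no assigned name (Gm37035 and Gm15915). Ratios of the 20 genes ran from 3.60 to 5.74 on the log2 scale, and being 2-fold higher within each genotype was part of their choice. Il1b, the inflammatory cytokine interleukin-1 beta, had the highest ratio, with 125 UMIs in 100 primed cells against 9 UMIs in the other singlets. Lim2, a lens membrane protein, was found in 23.3% of primed cells and 0.595% of the others. Ccl17, a chemokine, was found in 13.2% and 0.279%. Sptb (beta spectrin of the red cell skeleton) had 166 UMIs against 21, Tspo2 (an erythroid translocator protein) 212 against 28, and Ache (acetylcholinesterase) 642 against 112. Cited4 had 405 UMIs against 79, Cdc42ep5 301 against 69, Pde10a (a phosphodiesterase) 798 against 216, and F10 (coagulation factor X) 204 against 68. Lhfp, Pls1, Alox5 and Mgll completed the 20 together with Klf1, Thbs1, F2rl2 and Ces2g of the lists above. The 10 lowest genes included several that encode granule proteins of neutrophils. Chil3, Gbp4, Fcnb, Ifitm6, Tifab and Crybg2 had 0 UMIs in the primed cells and 519, 195, 153, 125, 122 and 113 UMIs in the others. Retnlg and Ltf had 1 UMI each, against 576 and 325. Ngp had 3 UMIs against 1380, and S100a8 had 31 against 5277. The UMIs of the others lay in few cells, since Chil3 was found in 0.304%, Ngp in 0.418%, Retnlg in 0.215%, Fcnb in 0.101% and Ltf in 0.165% of them. S100a8 was found in 2.47% of primed cells and 2.03% of the others. Gbp4, Tifab and Crybg2 were found in 1.60%, 1.08% and 1.39% of the others, and Ifitm6 in 0.545%.

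The primed cells were next divided by which markers of the rule they held. Of 1135 cells, 743 (65.5%) held at least 1 platelet marker (Pf4, Treml1 or Gp1bb) and at least 1 erythroid marker (Car1, Rhag or Aqp1). A further 301 (26.5%) held platelet markers and no erythroid marker, and 91 (8.02%) held erythroid markers and no platelet marker. Genes that did not enter the rule differed in level between these groups. Vwf was at 65.5 CPM (59.1 to 72.4) in cells with platelet markers alone, 125.5 CPM (119.8 to 131) in cells with both and 30.2 CPM (22.5 to 39.7) in cells with erythroid markers alone. Cavin2 followed the same order at 138, 243 and 56.3 CPM. Klf1 had another order, at 37.3, 48.7 and 88.8 CPM. The summed erythroid list was at 1104, 1290 and 1469 CPM, and the summed platelet list at 1475, 1898 and 996 CPM. In the other singlets these sums were 652 CPM (erythroid) and 600 CPM (platelet). Each marker set thus stood above the other singlets in both sums. Car2 made up most of the erythroid sum, at 738, 830 and 861 CPM, and was at 522 CPM in the other singlets. The counting intervals of the sums did not overlap between the sets. That was not particular to these lists, since those of the granulocyte and monocyte list below did not overlap either. Ermap, an erythroid membrane protein, had 49 of its 61 UMIs in the cells with erythroid markers alone. These 61 UMIs lay in 9 primed cells, of which 5 held 54, so this is no trait of the set as a whole. Granulocyte and monocyte genes were highest in the cells with platelet markers alone, at 468 CPM against 186 and 238 CPM in the other groups, and at 1132 CPM in the other singlets. Part of this sum lay in single cells. Of 375 wild-type Mpo UMIs, 303 lay in the cells with platelet markers alone, and 1 wild-type cell held 235. The sum without such cells was not computed.

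**Figure D4:**
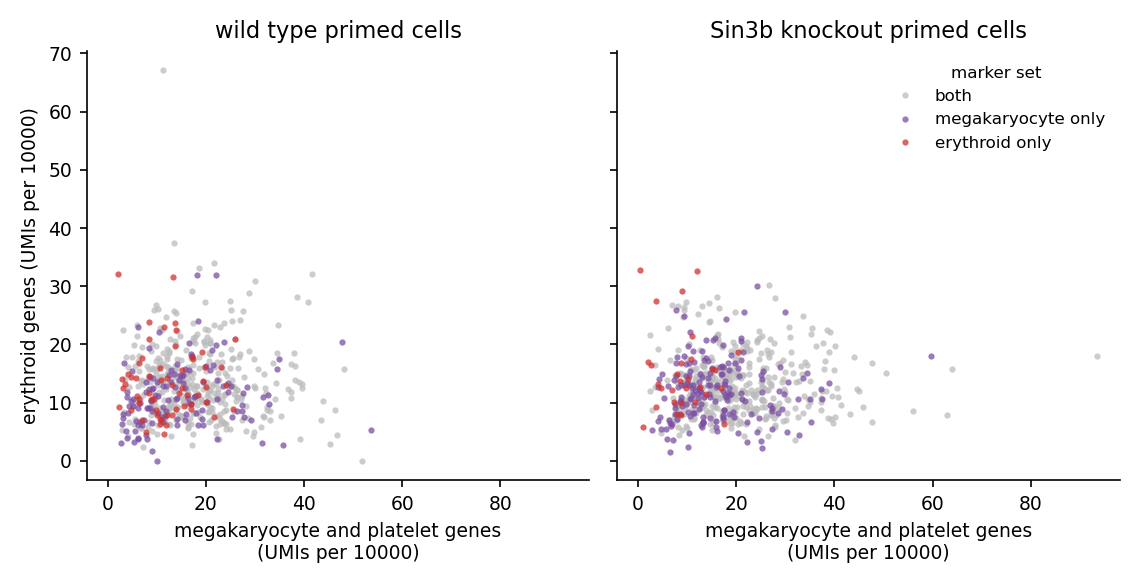
UMIs per 10000 of the platelet list (x axis) and of the erythroid list (y axis) in each primed cell after 5-FU, wild type left and Sin3b knockout right, colored by the marker set that the cell held. The marker sets overlapped on both axes; the median platelet level per cell was 18.3 UMIs per 10000 with both sets, 14.2 with platelet markers alone and 10.7 with erythroid markers alone.

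The makeup of the primed cells by marker set is given by genotype as a description, since the sets rest on the markers of the rule. Cells with platelet markers alone were 127 of 545 in the wild type (23.3%) and 174 of 590 in the knockout (29.5%), a difference of 6.19 points (1.05 to 11.3). Cells with erythroid markers alone were 61 in the wild type (11.2%) and 30 in the knockout (5.08%), a difference of −6.11 points (−9.39 to −2.95). Cells with both sets took nearly equal shares, 65.5% and 65.4%, with an interval of −5.59 to 5.45 points for the difference. Counted against all singlets of the genotype, the share with platelet markers alone was 2.40% in the wild type and 4.67% in the knockout. Both sets were held by 6.73% and 10.4%, and erythroid markers alone by 1.15% and 0.805%. The last difference was −0.346 points, with an interval (−0.749 to 0.0801) that held 0. Knockout primed cells were deeper, as given above, and the part of depth in these classes was not tested.

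Sin3b itself was low in the knockout primed cells. It was at 119 CPM (113 to 127) in the 545 wild-type cells, with 1109 UMIs, and at 12.9 CPM (11.0 to 15.1) in the 590 knockout cells, with 167 UMIs, a log2 ratio of −3.20 (−3.45 to −2.97). In the other singlets the ratio was −2.87 (−2.995 to −2.75). The hashtag of the assigned genotype held a median of 87.2% of hashtag UMIs in wild-type and 86.1% in knockout primed cells.

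The levels of the 8 markers are given by genotype as a description, since the cells were selected on them. Pf4 was at 1022 CPM (1002 to 1043) in the wild type and 1705 CPM (1682 to 1727) in the knockout, a log2 ratio of 0.74 (0.70 to 0.77). Treml1 was at 58.3 and 78.2 CPM (0.42, interval 0.27 to 0.58). Gp1bb was at 12.6 and 14.6 CPM, with an interval that held 0 (−0.13 to 0.55). Aqp1 was at 81.2 and 55.6 CPM (−0.55, interval −0.70 to −0.40) and Rhag at 15.1 and 10.4 CPM (−0.54, −0.89 to −0.19). Car1 was at 43.3 and 31.4 CPM (−0.46, −0.66 to −0.26), but 1 wild-type cell held 139 of 402 UMIs, and without the top cell of each genotype the ratio was −0.20 (−0.44 to 0.04). The Car1 ratio was above 0 with other hashtag rules, at 0.25 with quantile 0.95 and at 0.41 when singlets were defined by at least 80% of hashtag UMIs from 1 tag. Gata1 did not differ beyond counting error (89.5 and 83.2 CPM, −0.24 to 0.03), and Mfsd2b differed little (117 and 104 CPM, −0.29 to −0.05). The other singlets had ratios of 0.60 for Pf4, 0.41 for Treml1 and −0.77 for Aqp1. The ratio in primed cells minus that in the other singlets was 0.13 (0.03 to 0.24) for Pf4 and 0.22 (−0.23 to 0.67) for Aqp1. At homeostasis Pf4 was at 337 CPM in wild-type and 1379 CPM in knockout primed cells (2.03, 1.93 to 2.14), and Aqp1 at 52.0 and 62.4 CPM (0.27, −0.09 to 0.61). Car1 at homeostasis was at 368 and 621 CPM (0.76, 0.64 to 0.87), which is higher in the knockout.

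Over all genes, the 8 markers included, the genotypes were then compared. A gene was counted when it was at least 2-fold apart with an interval that left out 0 and at least 50 UMIs in all. Of 11071 genes, 44 were higher in the knockout primed cells (0.397%) and 90 lower (0.813%), with a median log2 ratio of −0.01. With no limit on the size, 15.8% of these genes had an interval above 0 and 16.5% an interval below 0. Of the 8 markers, 0 reached 2-fold, and 2 intervals lay above 0 and 4 below. In the platelet list 1 of 19 genes was counted as higher and 0 as lower, and the median was 0.26, with 9 intervals above 0 and 1 below. The 1 gene was Ppbp, a platelet chemokine, with 18 and 56 UMIs. Gp9 was at 0.58 (0.47 to 0.70), Mmrn1 (multimerin) at 0.52 (0.38 to 0.67), Cavin2 at 0.44 (0.35 to 0.53) and Vwf at 0.38 (0.26 to 0.51). Itga2b (−0.01, −0.10 to 0.08) and Gp5 (−0.06, −0.22 to 0.11) did not differ beyond counting error, and Itgb3, the integrin chain CD61, was lower at −0.34 (−0.53 to −0.16). Cavin2 had a larger ratio in the other singlets (1.24), and the difference of the ratios was −0.80, with an interval of −0.97 to −0.64.

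Erythroid genes outside the rule differed little by genotype. Of 12 counted genes, 1 was higher (Ermap) and 0 lower, with a median of 0.07, 4 intervals above 0 and 0 below. Klf1 was at 0.11 (−0.06 to 0.29) and Epor at −0.01 (−0.24 to 0.23). Ces2g, a carboxylesterase, was at 0.57 (0.40 to 0.74) and Blvrb (biliverdin reductase) at 0.16 (0.03 to 0.29). Ermap rested on few cells, since its 53 knockout UMIs lay in 5 cells and its 8 wild-type UMIs in 4. Its ratio was 0.48 without outlying cells and 0.72 as the mean of CPM per cell, both short of 2-fold. The beta globins Hbb-bs (0.99, 0.59 to 1.42) and Hbb-bt (0.72, 0.49 to 0.96) were higher in the knockout after 5-FU, where the other singlets had ratios of 0.23 and 0.79. At homeostasis both were lower in the knockout primed cells (−4.90, −6.04 to −4.08, and −2.31, −3.14 to −1.63). These ratios rested on 492 and 10 UMIs of Hbb-bs and 144 and 18 of Hbb-bt, in 225 wild-type and 148 knockout cells. How these UMIs were spread over cells was not computed, so single cells may weigh on them. Of 13 counted heme and iron genes, 0 reached 2-fold, 4 intervals lay above 0 and 0 below, and the median was 0.005. The highest was Alad, an enzyme of the heme pathway, at 0.59 (0.43 to 0.75), against 0.51 in the other singlets.

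Of the 15 shared transcription regulators, 0 reached 2-fold, 11 intervals lay below 0 and 1 above, and the median was −0.16 in the primed cells and −0.21 in the other singlets. Myb was at −0.54 (−0.60 to −0.47), Cbfa2t3 (the corepressor ETO2) at −0.31 (−0.38 to −0.24) and Gata2 at −0.27 (−0.35 to −0.20). Gfi1b was the 1 above, at 0.31 (0.17 to 0.45), and had a ratio of −0.22 in the other singlets, a difference of 0.53 (0.34 to 0.72). In cytokine signaling, Socs2, a STAT5 target, was at 0.91 (0.69 to 1.14), and Kit at −0.33 (−0.43 to −0.24). The ratio for Socs2 was 0.98 in the other singlets. S phase genes had 15 of 20 intervals above 0 and 0 below, with a median of 0.23 against 0.31 in the other singlets. G2 and M phase genes had 16 of 20 above and 0 below, with a median of 0.18 against 0.47 in the other singlets. At fixed depth 45.7% (41.6 to 49.9%) of knockout and 38.1% (34.0 to 42.4%) of wild-type primed cells had at least 5 UMIs of the G2 and M phase genes. For the S phase genes these shares were 70.3% (66.4 to 74.0%) and 61.3% (57.0 to 65.4%). The primed cells were again those set at full depth, where knockout primed cells were deeper, and the part of depth was not tested. Without thinning, the median level of the G2 and M phase genes was 7.21 UMIs per 10000 in a knockout and 5.24 in a wild-type primed cell.

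Of 8 counted granulocyte and monocyte genes, 4 were at least 2-fold lower in the knockout primed cells and 0 higher, 6 intervals lay below 0, and their summed level was 341 CPM in the wild type and 208 CPM in the knockout. Most UMIs of the list were of Prtn3, with 2021 in 384 wild-type and 2099 in 481 knockout cells. Its ratio without the top cell of each genotype was −0.30 (−0.39 to −0.20). Mpo was at 40.4 and 9.84 CPM (−2.03), Ctsg (cathepsin G) at 27.7 and 6.51 CPM (−2.08) and Elane (neutrophil elastase) at 10.7 and 1.32 CPM (−2.98). Single cells weighed on the ratios of these 3 genes to differing degrees. A single wild-type cell held 94 of 99 Elane UMIs, and without the top cell of each genotype the ratio was 0.82 (−0.68 to 2.74). A single wild-type cell held 235 of 375 Mpo UMIs, and without the top cells the ratio was −1.30 (−1.72 to −0.90). For Ctsg, found in 39 wild-type and 32 knockout cells, 1 wild-type cell held 115 of 257 UMIs. The Ctsg ratio without the top cells was −1.92 (−2.42 to −1.46), little changed. Of 7 lymphoid genes 2 were at least 2-fold lower, Dntt with 82 and 47 UMIs and Satb1, a chromatin organizer, with 113 and 64 UMIs. Cd52, a surface antigen of lymphocytes, was at −0.92 (−1.21 to −0.64), against 0.06 in the other singlets, and Ighm, the heavy chain of IgM, at −0.79 (−1.47 to −0.13). Flt3, Notch1 and Il12a had intervals that held 0. Mature neutrophil and macrophage genes summed to 5.39 and 6.04 CPM, with C1qa of macrophages at 4 and 24 UMIs. Mast cell, basophil and eosinophil genes summed to 79.1 and 37.7 CPM, with Fcer1a at 24.2 and 1.63 CPM. Its 225 wild-type UMIs lay in 77 cells and its 21 knockout UMIs in 12 cells, so this difference was spread over cells.

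The 24 genes whose counting intervals lay farthest from 0 between genotypes were mostly not lineage genes. On the higher side in the knockout stood the metallothioneins, which bind zinc and copper. Mt2 had 53 wild-type and 647 knockout UMIs (log2 ratio 3.12, 2.73 to 3.57) and Mt1 had 729 and 2873 UMIs (1.50, 1.38 to 1.62). Both had larger ratios in the other singlets (3.84 and 2.40), and the difference of the ratios for Mt1 was −0.90 (−1.04 to −0.75). Zfp979 (2.14), Eps8l1 (1.93), Ndn (necdin, 1.85), Phf11d (2.16), Fgf3 (2.06), Hist3h2ba (1.41) and the immediate early gene Nr4a1 (1.28) were also higher. Nr4a1 had 69 and 235 UMIs in the primed cells and a ratio of 0.03 in the other singlets, so the difference of the ratios was 1.25 (0.84 to 1.67). With membership set at 4000 UMIs per cell, its ratio in the primed cells was 0.66. Ermap, described above, and the unnamed genes Gm35082 and Gm26862 completed the 12 higher genes. On the lower side, beside Sin3b, Fcer1a, Mpo, Ctsg and Elane, stood the junction gene Tjp1 (−2.76), the B lineage factor gene Ebf1 (−3.69), Rcvrn (recoverin, −3.11), the nucleoside transporter gene Slc28a2 (−1.70), the interleukin-18 receptor gene Il18r1 (−2.21), Arhgef28 (−1.91) and Gm16758 (−2.16). Of the 60 Ebf1 UMIs in the wild type, 38 lay in 1 cell. Tjp1 had 212 UMIs in 150 wild-type cells and 43 UMIs in 40 knockout cells.

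**Figure D5:**
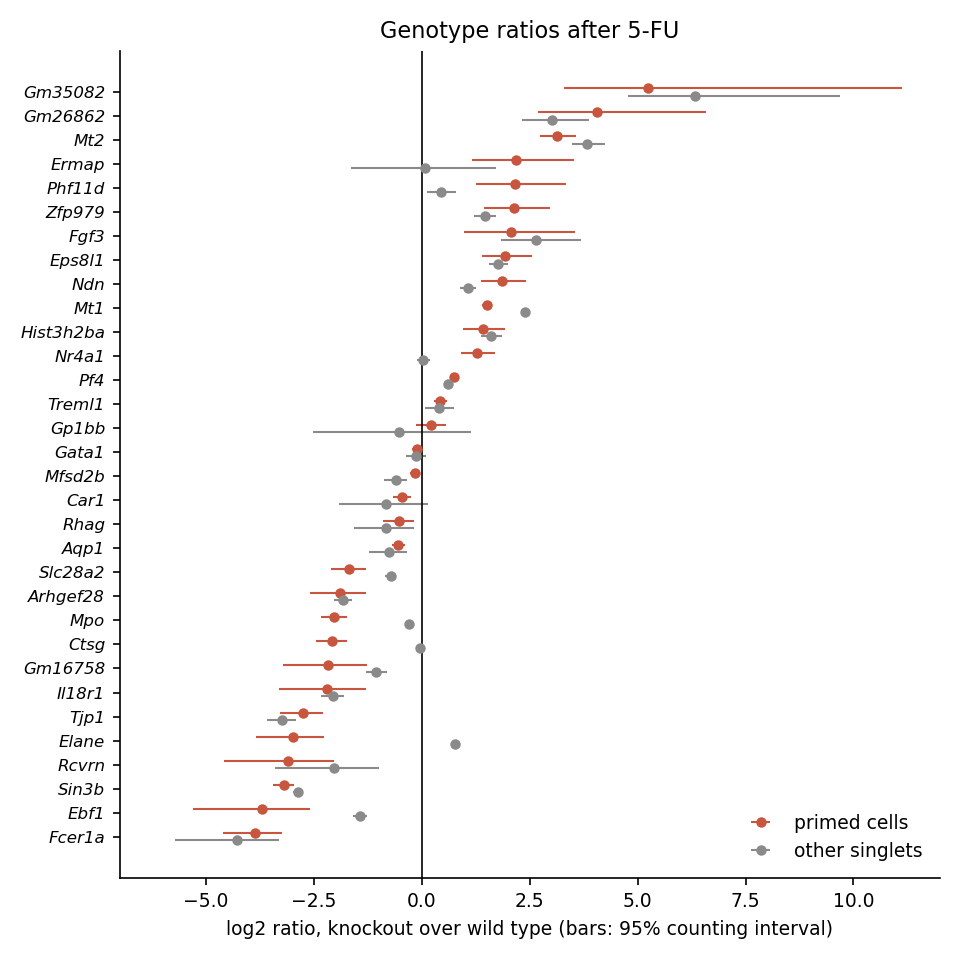
Log2 ratio of summed CPM, knockout over wild type (x axis, bars are 95% counting intervals), for the 8 markers and the 24 genes named by genotype (y axis), in primed cells (red) and in other singlets (grey) after 5-FU. Sin3b, Fcer1a and Mt2 lay far from 0 in both classes of cells, while Elane lay at −2.98 in primed cells and 0.77 in the others. Without the top cell of each genotype, Elane was at 0.82 (−0.68 to 2.74) in primed cells.

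Of these 24 genes, 23 had a ratio of the same sign in the other singlets. For 13 the interval of the difference between the classes left out 0. Nr4a1 (0.03, −0.12 to 0.18) and Ermap (0.07, −1.64 to 1.72) had intervals in the other singlets that held 0. The 24 were chosen for their extreme ratios in the primed cells after 5-FU. Such counts, here and at homeostasis, were not computed over all genes, and nothing is read from them. At homeostasis 21 of the 24 genes had at least 10 UMIs in the primed cells. Of those 21, 18 had a ratio of the same sign. Mt1 and Mt2 were higher in the knockout there as well (1.55 and 1.25). The 3 of opposite sign were Fgf3 (−1.55), Eps8l1 (−0.50) and Hist3h2ba, with 14 wild-type UMIs and 0 knockout UMIs. Within the primed cells divided by marker set, Pf4 was higher in the knockout in cells with platelet markers alone (0.38, 0.30 to 0.47) and in cells with both sets (0.76, 0.72 to 0.80). In the cells with both sets, Aqp1 was at −0.44 (−0.60 to −0.28) and Treml1 at 0.48 (0.30 to 0.66), while Klf1 was at 48.7 CPM in both genotypes. Treml1 was at −0.04 (−0.34 to 0.27) in cells with platelet markers alone. Aqp1 was at −0.17 (−0.64 to 0.28) in cells with erythroid markers alone. Car1 was at −0.90 (−1.25 to −0.56) with both sets and at 0.80 (0.55 to 1.06) with erythroid markers alone. Single cells weigh on Car1, since 1 wild-type cell held 139 of 402 UMIs and 1 knockout cell 87 of 406. Its ratios within the sets were not computed without such cells. Pf4, Treml1, Aqp1 and Car1 also define the sets, so their ratios here are descriptions. Klf1 was higher in the knockout among cells with platelet markers alone (0.66, 0.22 to 1.13) and among cells with erythroid markers alone (0.60, 0.12 to 1.08). Mt1 was higher in each of the 3 sets (1.28, 1.66 and 1.66).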

How the data were processed

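The deposited values were raw UMI counts for each gene in each barcode. The authors counted the reads with Cell Ranger (version 4 for the homeostasis and 6.0.1 for the 5-FU library, per the file headers) from Single Cell 3′ libraries. The submitters' processing notes name mm9 as the genome build and also name Seurat and DESeq2, and no alignment setting is given in the sources used here. The labels put the 4 samples in 2 conditions, a cDNA and a hashtag library each. The 5-FU matrix held 12753 barcodes called as cells by the authors' software. The homeostasis matrix was unfiltered, and 23931 barcodes with at least 2921 UMIs were taken as cells. Its gene names were taken from the 5-FU feature list after the row order was checked (correlation of log counts across genes 0.919 in the given order, at most 0.389 when shifted). The called cells of the libraries shared 76 barcodes.

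Hashtags were classified with HTODemux (Seurat 5.3.0, R 4.3.3, quantile 0.99) on all barcodes, and singlets were kept. After 5-FU 434 barcodes were called for both tags and 3290 had no tag above the cutoff. No further doublet caller was run, so doublets within a genotype remain. The study also removed outlying, lineage-positive and lineage-primed cells, and those filters were not applied. Counts were summed over cells per class and genotype in Python 3.11.15 with SciPy 1.17.1, with edgeR 4.0.16 for TMM factors. With 1 pool per genotype there was no test, and all levels and ratios are descriptions. Shares have Clopper-Pearson, differences of shares Newcombe, CPM exact Poisson and ratios exact conditional binomial intervals at 95%, and differences of ratios a normal interval from the counts. Thinning drew 4000 UMIs per cell without replacement. The LSK subset signatures are gene names from the study's supplement. The code was tested on simulated data.

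The 8 markers, the gene lists and the comparisons were chosen with earlier results of these data known. Some members of the lists are counted but not reported here by name. Named genes are the markers, Sin3b, members of the described lists, the 20 highest and 10 lowest ratios of primed cells over other singlets (at least 100 UMIs, 2-fold within each genotype), and the 12 higher and 12 lower genes between genotypes whose interval lay farthest from 0 (at least 50 UMIs). Alternatives covered the marker rule, hashtag rule, cell filter, depth, scaling, low counts, pseudocount, weight of cells and makeup of pools. Running HTODemux without barcodes that had no hashtag UMI, leaving out each marker in turn, and leaving out the top cell of each genotype were chosen after seeing the data.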

Additional observations from a re-analysis of the deposited data

Results flagged for a closer look

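Barcodes outside the singlets also met the marker rule. After 5-FU it was met by 106 of 434 barcodes with both hashtags (24.4%, exact interval 20.5 to 28.7%), at a median of 31688 UMIs, and by 166 of 3290 barcodes with no assigned hashtag (5.05%, 4.32 to 5.85%), at a median of 9733 UMIs. At homeostasis the shares were 4.65% of 1441 barcodes with both hashtags and 2.55% of 6283 with no assigned hashtag. These barcodes entered no comparison between genotypes, and their genotype was not inferred. The deepest primed cell, of the wild type, held 210064 UMIs and all 8 markers, and gave 2.26% of the wild-type primed UMIs.

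Elane had a ratio of knockout over wild type of opposite sign in the primed cells and in the other singlets, with a difference of −3.75 on the log2 scale. The difference between these classes was not tested, and 94 of the 99 wild-type Elane UMIs in primed cells lay in 1 cell. Without the top cell of each genotype the ratio in primed cells was 0.82 (−0.68 to 2.74), so the opposite sign was not kept.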

How the results depend on the processing

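The share of primed cells was higher in the knockout under every alternative run. The difference, 5.55 points as reported, was 1.21 points at 4000 UMIs per cell and 3.88 points at hashtag quantile 0.95, and from 4.35 to 6.54 points under the other settings of the rule, hashtags and cell filter, 4.39 points without Pf4 among them. Counts of genes moved by over 1.5 times as follows. With at least 200 UMIs in place of 50, 1096 genes were at least 2-fold lower in primed cells, and 8 higher and 21 lower in the knockout. With at least 20 UMIs, 93 were higher and 195 lower in the knockout. With membership set at 4000 UMIs, which leaves fewer cells, these counts were 28 and 55. The other 61 values of these kinds stayed within 1.5 times or within the counting interval.

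Of 24 genes followed between genotypes, Car1, Elane, Gata1 and Gp1bb changed sign. The last 2, whose counting intervals held 0 as reported, were at 0.019 at 4000 UMIs and at −0.023 with at least 2 UMIs per marker. Car1 was at 0.075 with at least 2 UMIs per marker, 0.41 with a tag holding 80% of hashtag UMIs, 0.25 at quantile 0.95 and 0.40 when barcodes without hashtag UMIs were left out, and lay farther below 0 without outlying cells (−1.57), as the mean of CPM per cell (−0.99) and weighted by marker set (−0.70). Ermap ran from 0.48 to 4.34 and Nr4a1 from 0.66 to 1.72. Mpo ran from −2.04 to −1.04, Fcer1a from −5.46 to −3.60 and Mt2 from 2.65 to 3.73. Elane was at 0.79 with at least 4 markers, 0.57 with at least 2 UMIs per marker, 2.30 at 4000 UMIs and 1.73 without outlying cells. Pf4 ran from 0.30 to 0.85 and Aqp1 from −0.69 to −0.46. Depth limits genes under 50 UMIs, which did not enter the main counts of genes. The tally of signs at homeostasis took genes with at least 10 UMIs, and 1 alternative took genes with at least 20. No paired analysis was possible because each genotype is 1 pool per library.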
